A study of Mus musculus with 12 samples.

Results

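St6galnac1 and 9 further genes were followed across epithelial cells of the colon from wild-type (WT) mice and of mice with the genotype Nfkb2-/- (KO). The 10 genes were taken by symbol, all 10 were among the 46517 genes counted, and all 10 passed the filter on low counts that kept 12522 genes. St6galnac1, the pseudogene Gm11735 and the antisense RNA gene BC018473 lie next to each other on chromosome 11 and were picked because their counts were higher in KO. Their KO against WT values are therefore given as a description, without a test. The other 7 genes, St6galnac2, C1galt1, C1galt1c1, Gcnt3, B3gnt6, Fut2 and St3gal4, act in mucin glycan synthesis and were not picked on the genotype difference.

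All mice had the strain label C57BL/6 and an age of 7 to 9 weeks. The 4 groups of 3 samples were untreated WT, WT under dextran sulfate sodium (DSS) for 48 h, untreated KO, and KO under DSS for 48 h. DSS is a sulfated polysaccharide that injures the colonic epithelium. Nfkb2 encodes p100, the precursor of the NF-kB subunit p52, and the labels give the genotype without saying which part of the gene was removed, and name no Cre driver.

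Mucin-type O-glycans are built in the Golgi on serine and threonine residues of mucins such as Muc2, the gel-forming mucin of colonic goblet cells. A GalNAc residue is attached first, core enzymes extend it with galactose or GlcNAc, and the chains are then lengthened and capped with sialic acid, fucose or sulfate. St6galnac1 encodes a sialyltransferase that places sialic acid directly on the first GalNAc, which ends further extension and gives the sialyl-Tn structure, and it is known for its activity in goblet cells.

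Library totals ran from 5595909 to 8117740 counts, with 15738 to 17120 genes detected. Nfkb2 itself read 30.8 to 46.1 CPM (counts-per-million, scaled by the TMM method) in the 6 WT samples and 11.7 to 19.6 CPM in the 6 KO samples, so the genotypes did not overlap, although reads remained in KO. The 6 epithelial markers summed to between 19900 and 28800 CPM and Epcam alone to between 2300 and 3261 CPM, whereas 16 leukocyte markers summed to between 34 and 214 CPM. One untreated WT library, replicate 3, had the lowest mean correlation with its own group (0.9466 over genes) and the lowest goblet marker sum of that group. Some results that change without it are given both ways, and others are named at the end. Library numbers in the labels run through all WT samples before all KO samples, so library order and genotype cannot be told apart.

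St6galnac1 (ENSMUSG00000009588.9) lies on the minus strand at chr11:116765025-116775507 of GRCm38 and is protein coding, with 9 exons in the transcript used. BC018473 (ENSMUSG00000056032.11, annotated as an antisense RNA) lies on the plus strand at chr11:116752167-116759373, and 5.65 kb separate it from St6galnac1. Gm11735 (ENSMUSG00000078586.3, an unprocessed pseudogene, which is a duplicated gene copy that kept its exon structure) lies on the minus strand at chr11:116739062-116749833, another 2.33 kb away. None of the exons of these 3 genes overlapped an exon of another annotated gene. St6galnac2, which encodes a second sialyltransferase acting on the same GalNAc, lies on the minus strand at chr11:116675303-116694868, and 44.2 kb separate it from Gm11735.

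The pseudogene is a close copy of the St6galnac1 coding sequence, which bears on how reads can be assigned. The whole Gm11735 transcript of 1581 bases aligned without a gap to bases 106 to 1686 of the St6galnac1 transcript of 2392 bases, where the coding sequence starts at base 106 and is 1578 bases long. Of the 1581 aligned bases, 1549 were identical and 32 differed (97.98% identity), and the longest identical run was 402 bases. Coding windows of 100 bases held between 0 and 10 differences. The first window with 10 differences is shown because no window holds more of the 32 positions at which reads of the pair can be told apart. It covers coding bases 63 to 162 of St6galnac1, the last 54 bases of exon 1 at chr11:116775287-116775340 followed by the first 46 bases of exon 2 at chr11:116769324-116769369. In Gm11735 the same stretch lies at chr11:116749718-116749771 and chr11:116742655-116742700. Both are from GENCODE M21 transcripts on the minus strand, written 5′ to 3′, with differing bases in capitals.
St6galnac1: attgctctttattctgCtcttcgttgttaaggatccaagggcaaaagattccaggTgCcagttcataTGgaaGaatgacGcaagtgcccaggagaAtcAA
Gm11735: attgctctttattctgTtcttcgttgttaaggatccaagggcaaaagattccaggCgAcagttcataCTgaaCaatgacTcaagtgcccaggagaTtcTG
Counted from 1 at the 5′ end of the stretch and with the St6galnac1 base first, the substitutions were C17T, T56C, C58A, T68C, G69T, G73C, G80T, A96T, A99T and A100G. Over the annotated transcripts, 53.4% of the 50-base words of Gm11735 also occurred in St6galnac1, and 34.9% of those of St6galnac1 occurred in Gm11735. Words shared in this way cannot assign a read to either gene, so the split of counts between the pair is uncertain. BC018473 shared no 50-base word with another annotated gene.

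St6galnac1 was nearly absent from the WT libraries and well detected in every KO library. Its counts were 0, 0 and 13 in WT untreated, 0, 0 and 0 in WT with DSS, 973, 1048 and 1065 in KO untreated and 778, 976 and 804 in KO with DSS. A count of 0 allows up to 3 counts, which is 0.4 to 0.492 CPM in the WT libraries, and such floors cover counting error only. The only WT library with St6galnac1 reads was untreated replicate 3. Its level in KO was 128.5 ± 2.28 CPM untreated and 131.2 ± 17.5 CPM under DSS (SD, n = 3 each). Against WT with libraries at 0 set to their floor, the KO mean was 131-fold higher untreated and at least 293-fold higher under DSS. Without untreated WT replicate 3, the untreated KO mean was at least 276-fold higher. The lowest KO library exceeded the highest WT value, floors included, 63-fold untreated and 228-fold under DSS.

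Muc2 was abundant in the same WT libraries in which St6galnac1 had no reads. Muc2 read 4191 to 5539 CPM in WT untreated, 3958 to 4673 in WT with DSS, 3410 to 3874 in KO untreated and 5771 to 5974 in KO with DSS.

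Gm11735 showed the same contrast between genotypes on top of a low level in WT. Its counts were 10, 16 and 42 in WT untreated, 31, 14 and 7 in WT with DSS, 430, 600 and 543 in KO untreated and 322, 446 and 425 in KO with DSS. The genotypes were well separated, with the lowest KO library 8.92-fold above the highest WT library untreated and 12.1-fold under DSS. Mean levels were 3.52 ± 2.63 CPM in WT untreated, 2.57 ± 1.89 in WT with DSS, 65.2 ± 7.70 in KO untreated and 60.7 ± 4.85 in KO with DSS (SD, n = 3 each), which is 18.5-fold higher in KO without DSS and 23.6-fold higher with it. These folds of Gm11735 were 31.9 without untreated WT replicate 3 and 40.3 without DSS-treated WT replicate 1.

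BC018473, the RNA gene annotated on the opposite strand, followed the same pattern at lower counts. The libraries kept no strand information, so the reads counted here cannot be assigned to either strand. BC018473 had 10, 0 and 18 counts in WT untreated, 6, 3 and 1 in WT with DSS, 232, 234 and 251 in KO untreated and 158, 131 and 156 in KO with DSS. KO means were 29.9 ± 1.34 CPM untreated and 23.0 ± 4.42 under DSS, against 1.41 ± 1.39 and 0.491 ± 0.382 in WT (SD, n = 3 each). These means correspond to an 18.9-fold higher level in untreated KO, with the WT library at 0 set to its floor, and a 46.8-fold higher level under DSS. The folds of BC018473 were 30.6 without untreated WT replicate 3 and 81.7 without DSS-treated WT replicate 1.

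**Figure D1:**
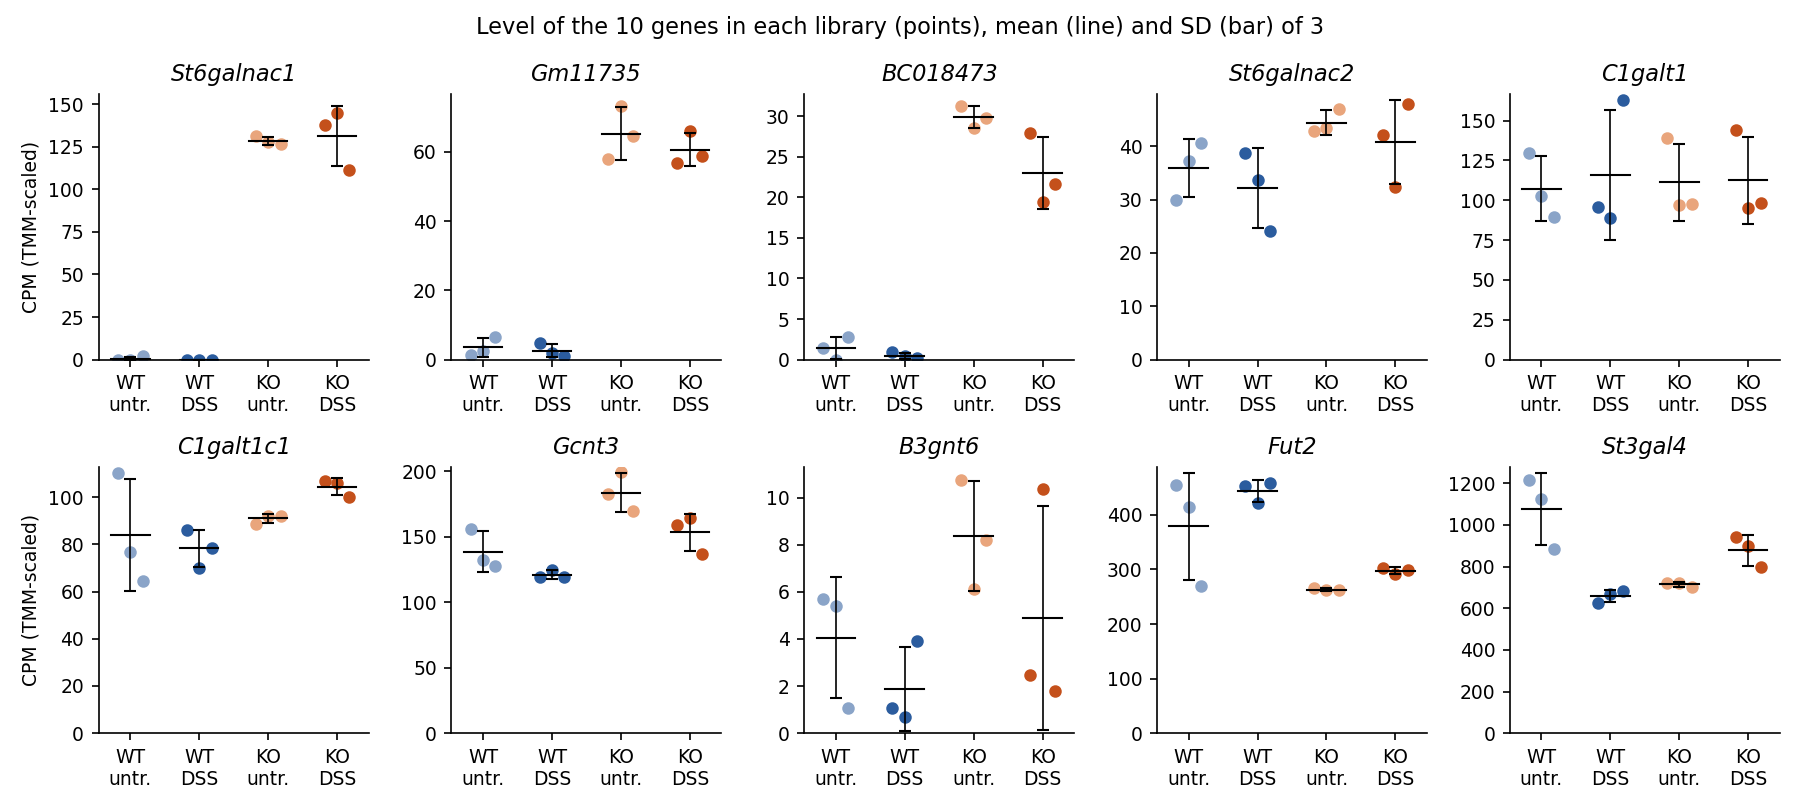
Level of each of the 10 genes in CPM (vertical axes from 0, scaled separately) in every library (points), with the mean (line) and SD (bar) of 3, for WT and KO, untreated and under DSS. The first 3 panels show St6galnac1, Gm11735 and BC018473 near 0 in all 6 WT libraries and high in all 6 KO libraries, and the last panel shows St3gal4 lower with DSS in WT and lower in untreated KO than in untreated WT.

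The division of reads within the pair is given as a description, since it comes from the counts the genes were picked on. Gm11735 took 29.3% to 36.4% of the summed counts of St6galnac1 and Gm11735 in the 6 KO libraries. Those shares have exact 95% binomial intervals between 26.6% and 38.8%, which cover counting error only, since amplified reads without molecular identifiers are not independent molecules. In WT, Gm11735 took 100% of the pair's counts in 5 libraries and 76.4% in untreated replicate 3, where the interval is 63% to 86.8%. The WT totals behind these shares were small, from 7 to 55 reads. With the pair's counts summed, which does not depend on the split between them, the KO libraries read 170.3 to 211 CPM and the WT libraries 1.14 to 8.50 CPM. For each 100 St6galnac1 counts, BC018473 had 22.3 to 23.8 in KO untreated and 13.4 to 20.3 with DSS, so these ranges did not overlap.

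Differences that the choice of genes did not use were tested with edgeR's quasi-likelihood test, and a gene passed, or was called, at an adjusted p under 0.05 over all 12522 genes. The interaction is the log2 change with DSS in KO minus that in WT. With DSS, the 3 neighbouring genes did not pass in KO. St6galnac1 had a log2 change of 0.03 (SE 0.33, edgeR adjusted p = 0.98), Gm11735 by -0.10 (SE 0.34, adjusted p = 0.929) and BC018473 by -0.38 (SE 0.42, adjusted p = 0.754). BC018473 was lower in all 3 DSS libraries than in all 3 untreated KO libraries, as were 12.3% of the genes tested (24.3% did not overlap in either direction). When single libraries were left out, the St6galnac1 value ranged from -0.05 to 0.13. In WT, Gm11735 changed by -0.45 (adjusted p = 0.75) and BC018473 was 2.83-fold lower (adjusted p = 0.355), which passed without untreated replicate 2 (adjusted p = 0.0354), a library with 0 BC018473 counts.

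Genes around the 3 lay far below their difference. This gap is a description only, because the 3 were picked for that same difference. Within 1 Mb of the start of St6galnac1, 86 genes were annotated, 84 were in the files, and 42 were tested, 39 of them other than the 3 picked. Over these 39, the difference in mean log2 CPM between KO and WT ran from -1.67 to 0.66 untreated (median -0.01) and from -1.92 to 0.50 under DSS (median -0.19), where the 3 picked genes stood at 4.32 or higher. Called genes numbered 1 of 39 untreated (2.56%, beside 3.48% of all genes tested) and 3 of 39 under DSS (7.69%, beside 3.11%). All 4 were lower in KO, and the 3 under DSS were no longer called once replicate was a blocking term. DSS moved 3 of the 39 in WT (7.69%, beside 6.3% of all genes) and 1 in KO (2.56%, beside 3.92%). By edgeR, 0 of the 39 passed for the interaction, with 7 at an unadjusted p under 0.05 and 1 called by DESeq2.

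The nearest tested genes on either side were St6galnac2 and Jmjd6, which encodes a Jumonji-domain hydroxylase and lies 61.9 kb beyond St6galnac1. Jmjd6 read 22.6, 29.2 and 46.8 CPM in untreated WT and 36.8, 20.5 and 31.7 CPM in untreated KO, so the groups overlapped (log2 change -0.15, edgeR adjusted p = 0.865). Prpsap1, which encodes a protein associated with phosphoribosyl pyrophosphate synthetase, fell from 287.7, 280 and 304 CPM in untreated WT to 200.5, 209 and 203 CPM in untreated KO (log2 change -0.51, SE 0.10, edgeR adjusted p = 0.00835). The genes lower in KO than in WT under DSS included Myo15b (log2 change -0.40, edgeR adjusted p = 0.038) and Unc13d, a regulator of granule exocytosis (-0.67, adjusted p = 0.0406).

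**Figure D2:**
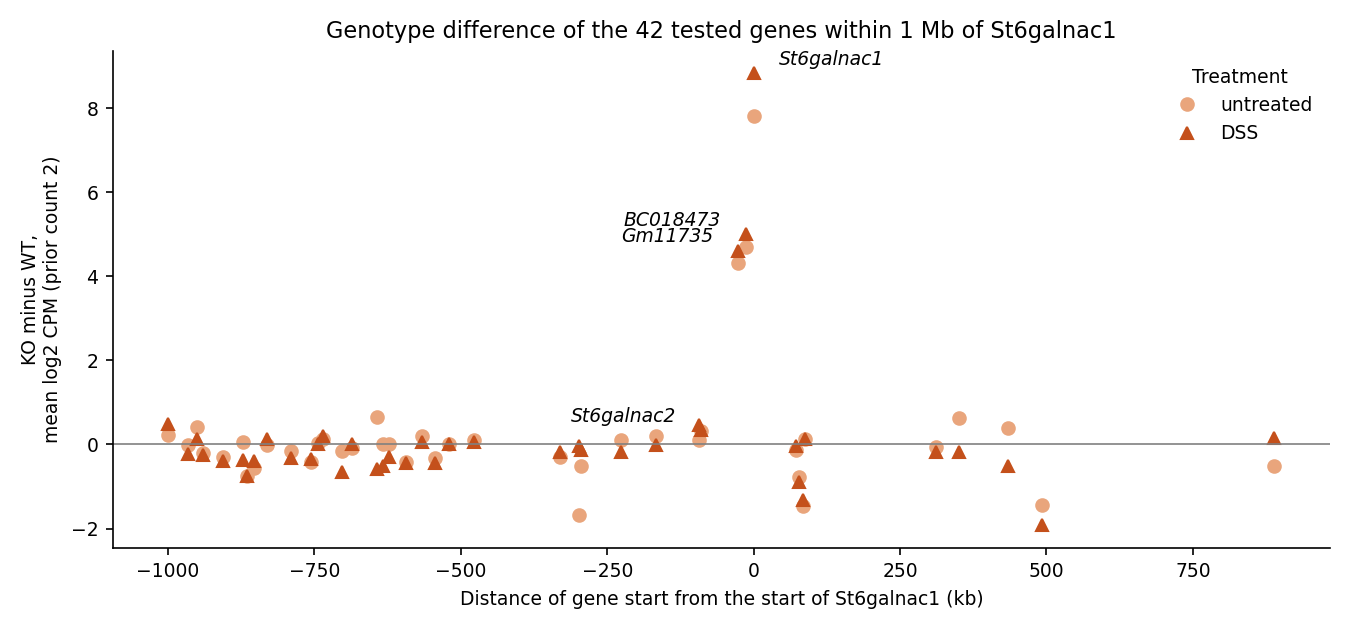
KO minus WT difference in mean log2 CPM (vertical axis, prior count 2) for the 42 tested genes against the distance of their start from that of St6galnac1 in kb (horizontal axis), untreated (circles) and under DSS (triangles). St6galnac1, Gm11735 and BC018473, which were picked for this difference, stand at 4.32 or higher and the 39 other genes between -1.92 and 0.66. The height of the St6galnac1 points depends on the prior count because WT libraries had 0 counts.

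The 5 genes outside the 10 most like St6galnac1 over the 12 samples, by the Pearson correlation of log2 CPM, were chosen from 12512 tested genes. The points share their genotype groups, so any gene with a steady genotype difference scores high, and the values are descriptive. They were Retreg1 on chromosome 15 (r = 0.956), Slc27a2 on chromosome 2 (0.945), Hykk on chromosome 9 (0.94), 2310034G01Rik on chromosome 19 (0.924) and Cttnbp2 on chromosome 6 (0.923). For comparison, Gm11735 reached 0.983 and BC018473 0.969. Slc27a2, which encodes a very long-chain acyl-CoA synthetase and fatty acid transporter, read 3.77 to 7.00 CPM in WT untreated, 2.27 to 5.47 in WT with DSS, 19.7 to 26.0 in KO untreated and 14.7 to 22.3 in KO with DSS. Retreg1, a receptor for autophagy of the endoplasmic reticulum, read 29.1 to 44.4 CPM over WT and 56.8 to 74.8 CPM over KO, so its genotypes did not overlap either. 2310034G01Rik lies 35.8 kb from Nfkb2, and read 3.94 to 6.93 CPM over WT and 12.8 to 25.8 CPM over KO.

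Levels of different genes were compared per kb of annotated exon. In untreated WT the order was St3gal4 (367.7 ± 59.1 CPM per kb), Fut2 (69.8 ± 17.99), C1galt1c1 (57.9 ± 16.4), Gcnt3 (32.2 ± 3.60), C1galt1 (17.6 ± 3.33), St6galnac2 (6.20 ± 0.950), Gm11735 (2.23 ± 1.67), B3gnt6 (1.71 ± 1.09), St6galnac1 (0.280 ± 0.485) and BC018473 (0.258 ± 0.254; SD, n = 3). Fut2 and C1galt1c1, Gm11735 and B3gnt6, and St6galnac1 and BC018473 were neighbours in this order that lay within each other's spread. In untreated KO, St6galnac1 stood at 53.7 ± 0.953 CPM per kb, between C1galt1c1 (62.8 ± 1.28) and Fut2 (48.5 ± 0.371). Gm11735 at 41.3 ± 4.87 lay within the spread of Gcnt3 at 42.7 ± 3.44 CPM per kb. In KO, St6galnac1 thus lay among the core and capping enzymes, and in WT it lay below all 7 of them.

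**Figure D3:**
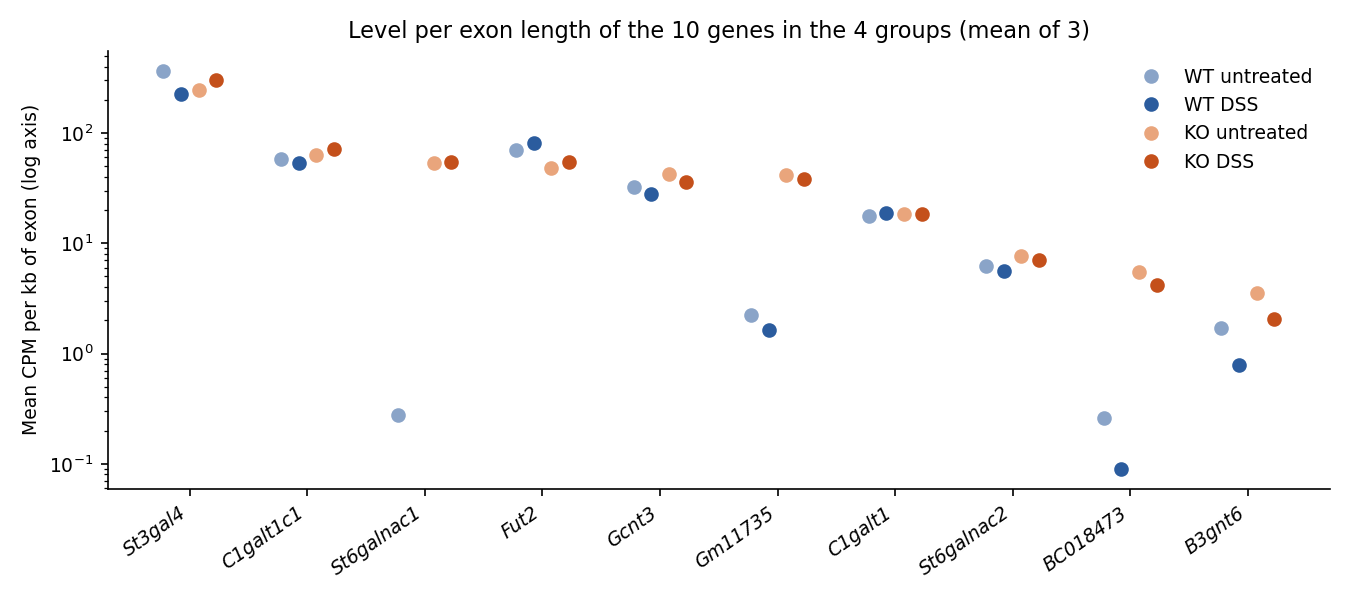
Mean level of the 10 genes in the 4 groups, in CPM per kb of exon (log axis, mean of 3 libraries), in the order of the untreated KO level. St6galnac1, Gm11735 and BC018473 show wide gaps between WT and KO points, and the WT point under DSS is missing for St6galnac1 because its mean was 0.

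St6galnac2 aside, the glycan enzymes lie away from St6galnac1, with C1galt1 at chr6:7844842-7875687, C1galt1c1 at chrX:38630785-38635087, Gcnt3 at chr9:70031496-70038088, B3gnt6 at chr7:98192417-98199481, Fut2 at chr7:45648591-45666394 and St3gal4 at chr9:35046576-35119268 of GRCm38. Among the 7 glycan enzymes that were not picked on the genotype difference, 1 passed for KO against WT untreated (3.48% of all genes tested, 1.76% lower), 1 for KO against WT under DSS (3.11%, 1.34% lower), 1 for DSS in WT (6.3%, 3.5% lower) and 1 for the interaction (1.7%, 1.17% positive). By edgeR none of the 7 passed for DSS in KO (3.92% of all genes), with 2 at an unadjusted p under 0.05 and 0 by DESeq2. The calls were St3gal4 in 3 comparisons and Fut2 in the other. In bulk samples such as these, fewer cells of a type and less RNA per cell cannot be told apart.

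None of the 4 core enzymes and chaperones passed the edgeR test in any comparison. C1galt1, the galactosyltransferase that makes core 1, had log2 changes between -0.04 and 0.11 in the 4 comparisons of 2 groups, with edgeR adjusted p of 0.893 or higher. C1galt1c1, the chaperone Cosmc that C1galt1 needs to fold, read 110, 76.9 and 64.4 CPM in WT untreated, 86.1, 70.1 and 78.6 in WT with DSS, 88.9, 92.0 and 92.1 in KO untreated and 107, 106 and 100.2 in KO with DSS. Under DSS its KO libraries were all above its WT libraries, but the difference did not pass (log2 change 0.42, SE 0.16, adjusted p = 0.233). B3gnt6, which makes core 3, had only 5 to 80 counts per library, and its groups varied widely (4.06 ± 2.58, 1.88 ± 1.77, 8.36 ± 2.34 and 4.89 ± 4.77 CPM in untreated WT, WT under DSS, untreated KO and KO under DSS). The genotype difference in B3gnt6 did not pass untreated (log2 change 1.04, SE 0.71, adjusted p = 0.568), where the groups did not overlap, or under DSS (1.40, SE 0.77, adjusted p = 0.444).

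Gcnt3, the mucin-type branching enzyme that makes core 2 and core 4, was higher in every KO library than in every WT library of the same treatment. It read 156, 132 and 127.5 CPM in WT untreated, 119.5, 125 and 119 in WT with DSS, 182, 199 and 169.5 in KO untreated and 159, 164 and 137 in KO with DSS. The difference just missed the threshold untreated (log2 change 0.41, SE 0.11, edgeR adjusted p = 0.0664) and was 0.34 under DSS (SE 0.11, adjusted p = 0.148). Untreated, it passed with DESeq2 (adjusted p = 0.0266), among genes with 10 or more counts in all samples (0.0479) and without untreated WT replicate 1 (0.0374). Untreated KO and WT groups did not overlap for 3 of the 7 enzymes that were higher in KO (9.81% of all genes tested) and 2 that were lower (9.52%). Under DSS this held for 3 higher (11.7%) and 1 lower (10.6%). With DSS, the groups did not overlap for 2 lower enzymes in WT (9.96%), and for 3 higher (12%) and 1 lower (12.3%) in KO.

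Fut2, the fucosyltransferase that adds the terminal fucose of the H antigen and sets secretor status, was lower in KO. It read 455, 414 and 269 CPM in WT untreated, 452, 421 and 458 in WT with DSS, 265.5, 262 and 262 in KO untreated and 303, 291.5 and 299 in KO with DSS. Every KO library was below every WT library of the same treatment, and untreated WT replicate 3 lay next to the KO values. Under DSS the difference passed (log2 change -0.58, SE 0.14, edgeR adjusted p = 0.0452), but it no longer did without any single DSS or untreated KO library (adjusted p from 0.0634 to 0.156). Untreated, it did not pass with all 12 samples (-0.53, SE 0.14, adjusted p = 0.0615) and did with DESeq2 (adjusted p = 0.0161) and without untreated WT replicate 3 (-0.72, adjusted p = 0.000125). The DSS change of Fut2 did not pass in WT (0.23, adjusted p = 0.476) or KO (0.18, adjusted p = 0.625). A further 2.9% of the 50-base words of Fut2 are shared with the related gene Sec1.

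St6galnac2 passed the test in none of the 5 comparisons. It read 29.9, 37.2 and 40.6 CPM in WT untreated, 38.7, 33.7 and 24.1 in WT with DSS, 42.8, 43.5 and 47.1 in KO untreated and 42.1, 32.3 and 48.0 in KO with DSS. The KO against WT difference did not pass untreated (log2 change 0.31, SE 0.20, edgeR adjusted p = 0.528) or under DSS (0.34, SE 0.20, adjusted p = 0.492). Of its exon bases, 8.58% overlap 1810032O08Rik on the opposite strand, and without strand information shared reads cannot be assigned. A second annotated entry of the same name, on the same strand and not among the genes counted, overlaps 6.61% of these exon bases. In all, 13.7% of the 50-base words of St6galnac2 also occur in other annotated genes.

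St3gal4, a sialyltransferase that caps terminal galactose, had the highest level of the 10 genes, and its response to DSS ran in opposite directions in the genotypes. It read 1216, 1126 and 882.5 CPM in WT untreated, 627, 668 and 681.5 in WT with DSS, 722, 722 and 701 in KO untreated and 943.5, 897 and 798 in KO with DSS. In WT it fell with DSS by 0.71 on the log2 scale (SE 0.11, edgeR adjusted p = 0.000896), and all 3 DSS libraries were below all 3 untreated ones. In KO all 3 DSS libraries were above the untreated ones, with a log2 change of 0.30 that did not pass (SE 0.11, adjusted p = 0.173), except without untreated WT replicate 3 (0.0327) or with the KO groups fitted alone (0.0414). The difference between these changes passed (interaction 1.00, SE 0.15, adjusted p = 0.00251). The interaction kept passing without each single library, with values from 0.91 to 1.13.

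Untreated KO lay between untreated and DSS-treated WT for this gene. St3gal4 was lower in untreated KO than in untreated WT (log2 change -0.59, SE 0.11, edgeR adjusted p = 0.00695), which did not pass when those groups were fitted alone (adjusted p = 0.0702). Under DSS it was 0.42 higher in KO (SE 0.11, adjusted p = 0.0565), a difference that passed with DESeq2 (0.0202), without untreated WT replicate 1 (0.0314) and without replicate 3 (0.0051). Of the exon bases of St3gal4, 14.1% overlap 4930581F22Rik on the opposite strand.

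Of 10 goblet cell markers, 2 fell with DSS in WT (median log2 change of the 10, 0.05) and 4 rose with DSS in KO (median 0.52). Against WT, 3 were lower and 1 higher in untreated KO (median -0.06), and 4 were higher under DSS (median 0.42), so most single markers did not pass in these comparisons. In this order the called shares were 20%, 40%, 40% and 40%, beside 6.3%, 3.92%, 3.48% and 3.11% of all genes tested. The 10 markers, none at 0 in a group, summed to 18900 to 30100 CPM in WT untreated, 15300 to 17600 in WT with DSS, 13900 to 15300 in KO untreated and 26900 to 30900 in KO with DSS. Clca1, a protein secreted with mucus, fell with DSS in WT (log2 change -1.05) and rose in KO (1.29), with an interaction of 2.34 (edgeR adjusted p = 5.55e-05). For the interaction 3 of the 10 markers passed, all positive (30%, beside 1.7% of all genes tested). Atoh1, Zg16, Spdef and Tff3 had negative interactions that did not pass (-0.05, -0.43, -0.12 and -0.15). A sum in CPM is weighted towards the most abundant markers. The part of goblet cell number in the St3gal4 values was not tested. St6galnac1 read 126.5 to 131 CPM in untreated KO and 111 to 145 CPM in KO with DSS, ranges that overlapped. Its relation to goblet cell number was not tested either.

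**Figure D4:**
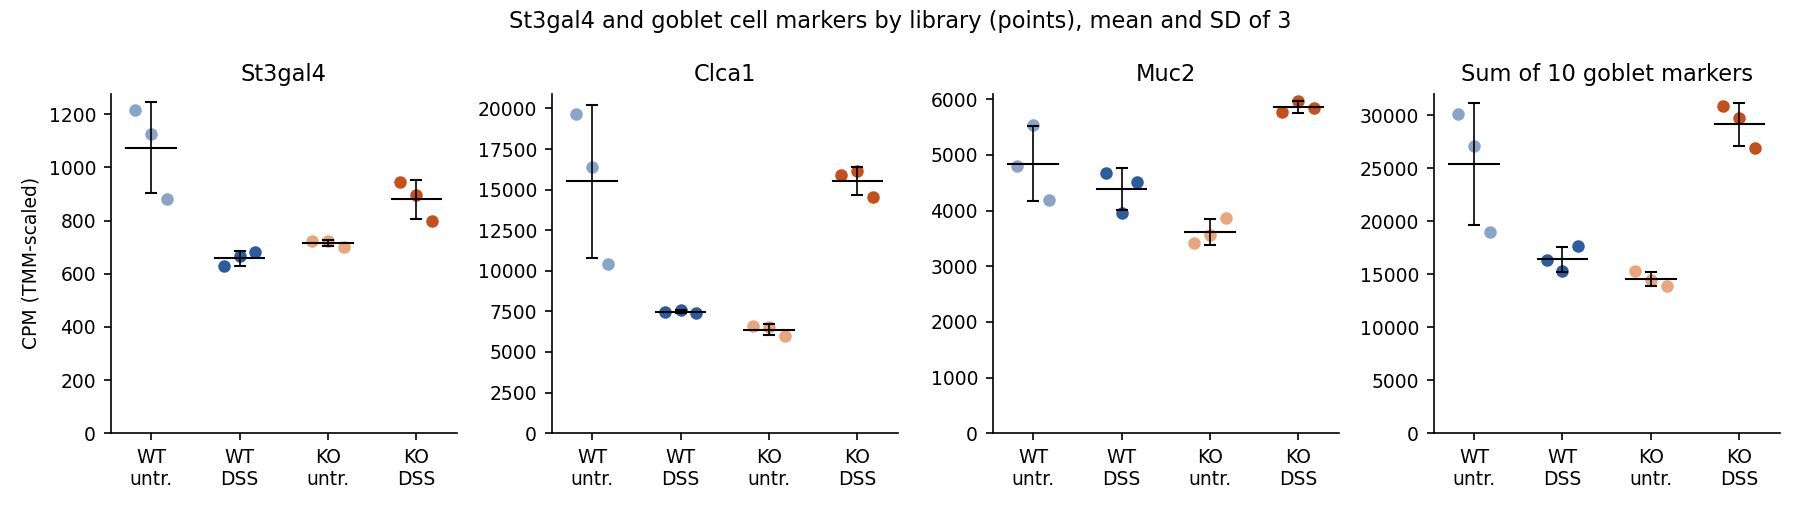
St3gal4, the goblet cell markers Clca1 and Muc2, and the sum of 10 goblet markers, in CPM (vertical axes from 0) by library (points), with mean and SD of 3. St3gal4, Clca1 and the marker sum are lower under DSS than untreated in WT and higher under DSS than untreated in KO. The median log2 change of the 10 markers with DSS was 0.05 in WT and 0.52 in KO.

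The wider set of O-glycan genes comprised 117 listed genes in the files besides St6galnac1, and 89 of them were tested, the 7 enzymes above included. This list also holds genes that serve other glycans, among them Fut8 and St6gal1 (N-glycans) and B3gnt5 (glycolipids). Its counts are therefore not of O-glycan enzymes alone. DSS in WT called 23 of the 89, 12 higher and 11 lower (25.8%, beside 6.3% of all genes, 2.8% higher and 3.5% lower). In KO, DSS called 8, with 3 higher and 5 lower (8.99%, beside 3.92%, 1.88% higher and 2.04% lower). KO against WT called 14 untreated, 10 higher and 4 lower (15.7%, beside 3.48%, 1.72% higher and 1.76% lower), and 6 under DSS, 2 higher and 4 lower (6.74%, beside 3.11%, 1.77% higher and 1.34% lower). For the interaction, 6 were called, 2 positive and 4 negative (6.74%, beside 1.7%, 1.17% positive and 0.527% negative). Fitting only the groups compared gave 12 calls for DSS in WT and 6 for untreated KO against WT. Without any single untreated or DSS-treated KO library, DSS in KO gave 1 to 3 calls, and KO against WT under DSS gave 1 or 2. Listed genes were more highly expressed than genes at large (median log2 CPM 6.09 against 4.43). From a mean log2 CPM of 3 upwards the shares were 28.9%, 10.5%, 18.4%, 7.89% and 7.89%, beside 7.64%, 4.97%, 3.94%, 3.74% and 2.29% of all genes at that level. Median changes of the list were near those of all genes, at 0.04 and 0.01 for DSS in WT and 0.02 and -0.002 for KO against WT untreated.

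Of 11 tested Galnt genes, which attach the first GalNAc, edgeR called 0 in each of the 5 comparisons, with 0 to 2 at an unadjusted p under 0.05. Of all genes tested, 1.7% to 6.3% were called in these comparisons, so 0 of 11 is near the share of all genes. Among 6 core enzymes, Gcnt1 alone was called, for KO against WT untreated (16.7%, beside 3.48%) and for the interaction (16.7%, beside 1.7%). Among 13 chain extension enzymes, 5 were called with DSS in WT (38.5%, beside 6.3%), 5 with DSS in KO (38.5%, beside 3.92%), 2 for KO against WT untreated (15.4%, beside 3.48%), 1 under DSS (7.69%, beside 3.11%) and 2 for the interaction (15.4%, beside 1.7%). Of 8 tested sialyltransferases besides St6galnac1, 3 were called with DSS in WT (37.5%, beside 6.3%), 1 with DSS in KO (12.5%, beside 3.92%), 3 for KO against WT untreated (37.5%, beside 3.48%), 1 under DSS (12.5%, beside 3.11%) and 1 for the interaction (12.5%, beside 1.7%).

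Gcnt1, which makes core 2 branches like Gcnt3, rose in untreated KO. It read 20.7, 15.4 and 14.4 CPM in WT untreated, 25.5, 25.2 and 35.4 in WT with DSS, 60.5, 44.4 and 41.6 in KO untreated and 35.2, 23.0 and 24.5 in KO with DSS. Untreated KO stood above every other group, with a log2 change of 1.53 against untreated WT (SE 0.23, edgeR adjusted p = 0.00189) and an interaction of -1.59 (SE 0.33, adjusted p = 0.0181).

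Of the 8 genes called with DSS in KO, 5 were chain extension enzymes. B3gnt7, a GlcNAc transferase that lengthens sulfated lactosamine chains, read 279, 246 and 296 CPM in WT untreated, 553, 520 and 491.5 in WT with DSS, 518, 547 and 515 in KO untreated and 678, 679 and 642 in KO with DSS. The untreated KO libraries lay inside the range of DSS-treated WT, with KO against WT at 0.94 (SE 0.09, edgeR adjusted p = 2.43e-05) and DSS in WT at 0.93 (SE 0.09, adjusted p = 1.23e-05). In KO the further rise with DSS was 0.34 (adjusted p = 0.0482, or 0.0772 once replicate was a blocking term). That call was lost in 11 of 18 alternative analyses. B3gnt5, which starts the lacto-series chain of glycolipids, rose with DSS in WT (0.97, adjusted p = 0.000616) and in KO (0.73, adjusted p = 0.0103).

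Galactosyltransferases of this group went different ways. B4galt1, which adds galactose to GlcNAc, read 172, 179 and 137.5 CPM in WT untreated, 228, 226 and 207 in WT with DSS, 258, 277 and 258 in KO untreated and 164, 184 and 195 in KO with DSS. It rose with DSS in WT (log2 change 0.44, edgeR adjusted p = 0.0326) and fell in KO (-0.54, adjusted p = 0.0142), with an interaction of -0.98 (SE 0.16, adjusted p = 0.00439). The WT call of B4galt1 was lost in 9 of 18 alternative analyses, among them leaving out untreated WT replicate 3 (0.33, edgeR adjusted p = 0.0755). B4galt4, its relative, fell with DSS in KO (-0.57, adjusted p = 0.0235) and in WT (-0.62, adjusted p = 0.00888). Gcnt2, which adds branches to lactosamine chains, fell with DSS in KO from 11.6 to 20.2 CPM to 5.19 to 9.28 CPM (-1.26, adjusted p = 0.0169) and in WT from 20.6 to 24.6 CPM to 7.83 to 8.40 CPM (-1.43, adjusted p = 0.00398). With DSS in KO, the calls of B4galt4 and Gcnt2 were each lost in 5 of 18 alternative analyses.

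Sialyltransferases other than St6galnac1 and St3gal4 were led by St6gal1 and St3gal3. St6gal1, which sialylates galactose mainly on N-glycans, read 42.3, 39.5 and 34.3 CPM in WT untreated, 85.0, 93.2 and 97.5 in WT with DSS, 111, 103 and 92.4 in KO untreated and 167, 133 and 144 in KO with DSS. It rose in KO untreated (log2 change 1.40, SE 0.13, edgeR adjusted p = 2.15e-05) and under DSS (0.69, SE 0.13, adjusted p = 0.00828), and with DSS in WT (1.25, SE 0.13, adjusted p = 2.72e-05) and KO (0.53, SE 0.13, adjusted p = 0.0307). The called directions of St6gal1 and St3gal4 were thus opposite in untreated KO and in WT under DSS. The St6gal1 call with DSS in KO was lost in 6 of 18 alternative analyses. St3gal3, another galactose sialyltransferase, fell with DSS in WT from 117, 122 and 60.6 CPM to 24.8, 27.3 and 25.4 CPM (-1.95, SE 0.22, adjusted p = 4.71e-05). In KO its change was -0.78 (adjusted p = 0.0554), and the interaction did not pass (1.17, adjusted p = 0.0748). The comparisons of DSS in WT and of untreated KO share the untreated WT samples.

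Fucosyltransferases included Fut4 and Fut8 besides Fut2. Fut4, which makes Lewis-type fucose linkages, read 126, 124.5 and 179 CPM in WT untreated, 239, 210 and 213 in WT with DSS, 249, 247 and 243 in KO untreated and 196, 221.5 and 211 in KO with DSS. The highest group was untreated KO, with a log2 change of 0.78 against WT (SE 0.13, edgeR adjusted p = 0.0036), beside 0.62 for DSS in WT (adjusted p = 0.00919) and an interaction of -0.86 (adjusted p = 0.0256). Fut8, the core fucosyltransferase of N-glycans, was lower in KO than in WT under DSS (-0.45, adjusted p = 0.0406), a call lost in 9 of 18 alternative analyses. Gmds, the first enzyme of GDP-fucose synthesis, was also lower in KO under DSS (-0.43, SE 0.08, adjusted p = 0.00932), from 879, 894 and 896 CPM in WT to 643, 678.5 and 663 CPM in KO.

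B4galnt2, which adds the terminal GalNAc of the Sda antigen in the gut, was lower in KO and under DSS in every comparison of 2 groups. It read 353, 333 and 298 CPM in WT untreated, 177, 169 and 166.5 in WT with DSS, 172, 182.5 and 173 in KO untreated and 141, 125 and 126 in KO with DSS. It fell with DSS by 0.94 on the log2 scale in WT (SE 0.10, edgeR adjusted p = 2.24e-05) and by 0.43 in KO (SE 0.10, adjusted p = 0.0232). KO against WT gave -0.90 untreated (SE 0.10, adjusted p = 8.04e-05) and -0.39 under DSS (SE 0.10, adjusted p = 0.0467). The call for KO against WT under DSS was lost in 12 of 18 alternative analyses, and the call for DSS in KO in 5 of 18. The interaction of B4galnt2 did not pass (0.51, adjusted p = 0.0969).

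Of 20 tested genes for nucleotide sugars, 2 rose and 4 fell with DSS in WT, 30% of them beside 6.3% of all genes. Of 10 tested genes for sialic acid metabolism 2 rose (20%), and of 10 for sulfation 2 rose and 1 fell (30%). With DSS in KO, edgeR called 0 of 20, 0 of 10 and 1 of 10 in these steps, counts near the 3.92% of all genes called. In the same order, 2, 2 and 3 genes had an unadjusted p under 0.05. Gne, the first and rate-limiting enzyme of sialic acid synthesis, rose with DSS in WT from 592 to 681 CPM to 896 to 975 CPM (log2 change 0.58, SE 0.08, edgeR adjusted p = 0.000486), and was higher in untreated KO, at 794 to 870 CPM (0.42, SE 0.08, adjusted p = 0.0119). Papss2, which makes the sulfate donor PAPS, fell with DSS in WT (-0.77, adjusted p = 0.000126) and KO (-0.38, adjusted p = 0.0379), and was lower in untreated KO than in WT (-0.48, adjusted p = 0.011). The Papss2 call with DSS in KO was lost in 8 of 18 alternative analyses. The untreated KO against WT calls of Gne and Papss2 were lost in 4 and 3 of 18. Gnpnat1, an acetyltransferase on the way to UDP-GlcNAc, fell with DSS in WT from 315 to 411 CPM to 195.5 to 221 CPM (-0.74, adjusted p = 0.000992), and was 212 to 255 CPM in untreated KO (-0.59 against WT, adjusted p = 0.0105). Its interaction was 0.83 (SE 0.16, adjusted p = 0.014). Ugdh, which makes UDP-glucuronic acid, fell with DSS in WT (-0.70, adjusted p = 0.00192), and Uap1l1, a relative of the enzyme that makes UDP-GlcNAc, rose (0.64, adjusted p = 0.0252). The Uap1l1 call was lost without untreated WT replicate 3 (0.53, edgeR adjusted p = 0.0711).

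Markers of other cell types also changed in these comparisons. Of all genes tested, 6.3% were called with DSS in WT and 3.92% with DSS in KO. For KO against WT the shares were 3.48% untreated and 3.11% under DSS. All 8 colonocyte markers, none at 0 in a group, fell with DSS in WT and 7 of 8 fell in KO, and against WT 1 was higher and 2 lower in untreated KO and 4 higher under DSS. Their sums were 11700 to 13100 CPM in WT untreated, 3160 to 3380 in WT with DSS, 7310 to 7960 in KO untreated and 3210 to 3800 in KO with DSS. Of 12 tested leukocyte markers, 4 rose with DSS in WT and 1 in KO, and against WT 5 were higher in untreated KO and 4 under DSS. The 16 leukocyte markers summed to 34 to 88.6 CPM in WT untreated, 91.6 to 100.4 in WT with DSS, 131 to 155 in KO untreated and 153 to 214 in KO with DSS. Of 6 tested crypt markers, 1 fell with DSS in WT and 4 in KO, and edgeR called 0 in either comparison of KO with WT, with 1 at an unadjusted p under 0.05 in each. The crypt markers summed to 291 to 501 CPM in WT untreated, 218 to 248 in WT with DSS, 424 to 462 in KO untreated and 231 to 261 in KO with DSS. Of 5 enteroendocrine markers, 1 fell with DSS in WT and 1 was higher in KO under DSS, and of 3 tested stromal markers 1 was higher in KO untreated and 1 under DSS. Among 6 epithelial markers, Vil1 alone was called, lower in KO under DSS (log2 change -0.55, edgeR adjusted p = 0.0386). EdgeR called 0 of 3 tested tuft cell markers in these comparisons. The 5 tuft markers summed to 16 to 37.9 CPM in WT untreated, 8.32 to 12.5 in WT with DSS, 6.87 to 12.3 in KO untreated and 13.6 to 20.2 in KO with DSS. The part of these cell types in the O-glycan gene values was not tested.

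**Figure D5:**
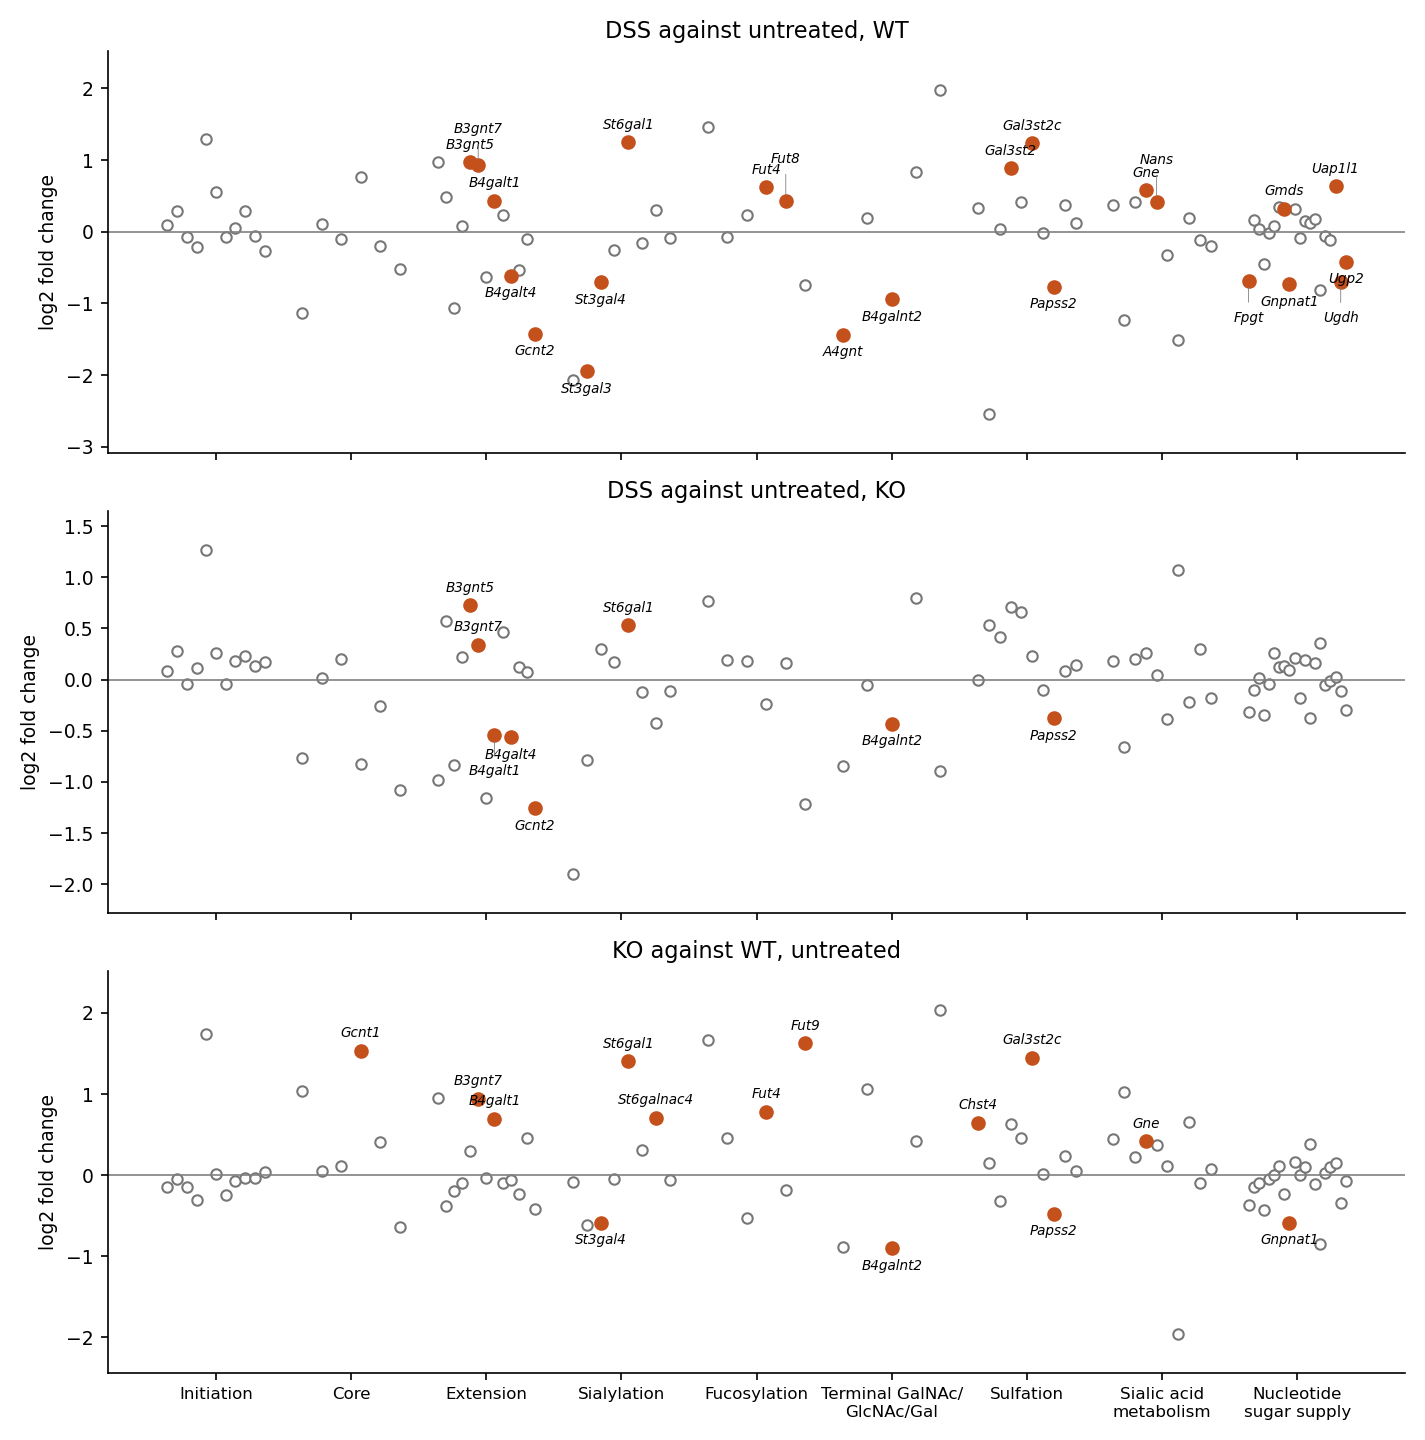
Log2 fold change (vertical axes) of each tested O-glycan gene other than St6galnac1, grouped by step of the pathway, for the DSS effect in WT, the DSS effect in KO, and untreated KO against untreated WT; filled points passed edgeR's adjusted p threshold of 0.05 and are labelled, open points did not pass. No gene of the initiation step is filled in any panel, and 23, 8 and 14 points are filled in the panels from top to bottom. Of all genes tested, 6.3%, 3.92% and 3.48% passed in these comparisons.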

How the data were processed

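RNA of colonic epithelial cells detached with EDTA was sequenced from 12 samples by the SMART-seq2 method, which keeps no strand information and no molecular identifiers. Per the submitters' processing notes, STAR 2.5.2b and featureCounts 1.5.0 were used with GRCm38/mm10; the annotation and the strand setting are not given in the sources used here. The values deposited by the authors are whole-number read counts per gene, with differing totals per sample. Per the labels' protocols, around 90% of cells usually carried EpCAM and lacked CD45.2, and libraries started from 2 ng of RNA with integrity numbers of 7.2 to 9.2 (median 8.8).

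Symbols and coordinates are from GENCODE M21 (GRCm38), matched by Ensembl ID without version (46005 of 46517 IDs; 27555 also with version). Counts were tested with edgeR 4.0.16 in R 4.3.3: filterByExpr, TMM scaling, 1 coefficient per group over all 12 samples, quasi-likelihood F test (two-sided), Benjamini-Hochberg adjustment over 12522 genes holding 99.8% of counts, threshold 0.05. The interaction is the DSS change in KO minus that in WT. Log2 CPM used a prior count of 2, and 3 counts per library was the floor of detection. DESeq2 1.42.0 was an alternative. The fits were tested on simulated data with known changes. For simulated untreated KO against WT, edgeR recovered 88% of 4-fold and 55.6% of 2-fold changes, with 5 false calls. Changes of 2-fold or less can therefore be missed. Replicate pairs differed beyond sampling noise (chi-square per degree of freedom 6.81 to 28.8). The design text calls the samples biological replicates, and p-values measure only the spread between them.

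Same-numbered untreated and DSS samples in KO deviated weakly together (correlations of 0.106 to 0.204, by the numbers in the titles). The replicate number was therefore taken to pair them, but the main values for DSS in KO come from the fit without this pairing. Replicate as a block changed the B3gnt7 call there, and that value is given beside it. In no other comparison did every pair exceed 0.1. Library numbers place same-numbered untreated and DSS samples next to each other in both genotypes.

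The 10 genes, the gene lists and the tests were chosen with earlier results of these data known. Named were the 10 genes, Nfkb2, the 5 genes most correlated with St6galnac1, O-glycan genes past the threshold (up to 6 per direction and comparison by smallest p), and, within 1 Mb, the nearest tested genes and those past the threshold for genotype (up to 8). Figures label every O-glycan gene that passed. Of 120 listed O-glycan symbols, 2 were newer names of genes listed already. Marker genes named beside results were chosen after their values were seen. Some single-gene values that this rule covers are not reported here.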

Additional observations from a re-analysis of the deposited data

Results flagged for a closer look

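For 6 O-glycan genes the DSS change differed between WT and KO by the test of the interaction itself (edgeR, adjusted over 12522 genes). St3gal4 changed with DSS by -0.71 in WT and by 0.30 in KO on the log2 scale, a difference of 1.00 (adjusted p = 0.00251). B4galt1 changed by 0.44 in WT and by -0.54 in KO, a difference of -0.98 (adjusted p = 0.00439). Both of its changes passed on their own with all 12 samples, but the WT call was lost in 9 of 18 alternatives and the KO call in 3. Gnpnat1 changed by -0.74 in WT and by 0.09 in KO, a difference of 0.83 (adjusted p = 0.014). Gcnt1 changed by 0.77 in WT and by -0.83 in KO, neither of which passed alone, with a difference of -1.59 (adjusted p = 0.0181). B3gnt7 rose in both genotypes, by 0.93 in WT and by 0.34 in KO, a difference of -0.59 (adjusted p = 0.0256). Fut4 changed by 0.62 in WT and by -0.23 in KO, a difference of -0.86 (adjusted p = 0.0256). No group had more than 3 samples, so single outlying samples were not tested for.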

How the results depend on the processing

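Of 1689 values of 95 single-gene results under alternatives, 1417 kept their direction and side of the threshold, 228 lost a call, 15 gained one and 29 changed sign; 96 of 282 values of 15 counts moved by over 1.5 times. Depth limits the WT values of the 3 neighbouring genes. Replicate number as a block, in comparisons whose numbers do not pair the samples, gave 3 O-glycan genes and 0 neighbours for KO against WT under DSS; Fut2 no longer passed there. Under it Nans and Ugp2 (DSS in WT), St6galnac4 and Chst4 (untreated KO), B3gnt7 and B4galnt2 (KO under DSS) and the B3gnt7 interaction also no longer passed, and 3 of 12 samples correlated best with their own number.

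Fitting only the groups compared gave 467 genes and 12 O-glycan genes for DSS in WT, and 195 and 6 for untreated KO against WT (789, 23, 436 and 14 with all groups). Without a filter, calls were 776, 13 O-glycan genes and 2 neighbours for DSS in KO (491, 8 and 1 with it), 703 and 3 neighbours for untreated KO (436 and 1), 642 and 5 neighbours for KO under DSS (390 and 3), and 356 and 1 neighbour for the interaction (213 and 0). DESeq2 gave 5 neighbours for DSS in WT, 800, 16 O-glycan genes and 2 neighbours for DSS in KO, 790 and 3 neighbours for untreated KO, 661 for KO under DSS, and 360, 11 and 1 for the interaction. Neighbours in untreated KO numbered 2 with DESeq2's size factors and 2 with at least 10 counts in each sample. The cause was not tested.

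Leaving out single libraries gave 483 to 958 genes, 14 to 23 O-glycan genes and 1 to 4 neighbours for DSS in WT, 235 to 710, 1 to 16 and 0 to 2 for DSS in KO, 212 to 725, 9 to 17 and 1 to 5 for untreated KO, 160 to 566, 1 to 10 and 0 to 4 for KO under DSS, and 152 to 350, 3 to 9 and 0 to 1 for the interaction. Without untreated WT replicate 3, Gal3st2, Uap1l1, B4galt1, Nans and Fut8 lost their calls for DSS in WT, and Chst4 its call for untreated KO. Without that library, O-glycan calls rose to 16 for DSS in KO and 10 for KO under DSS. They were 15, 14 and 14 for DSS in WT without DSS-treated WT replicates 1, 2 and 3; 9 for untreated KO without untreated KO 1 or 3 or untreated WT 2; 2, 3 and 1 for DSS in KO without untreated KO 1, 2 and 3, 3 without each DSS-treated KO library and 5 without DSS-treated WT 2; 1 or 2 for KO under DSS without any DSS-treated or untreated KO library; and 3 for the interaction without untreated KO 1 or 3, DSS-treated KO 3 or DSS-treated WT 2. The St3gal4 and B4galt1 interactions passed in all 17 alternatives; Gnpnat1 lost the call in 2, Gcnt1 in 4, and B3gnt7 and Fut4 in 10 each.

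Log2 changes that turned sign when a library was left out, none of them past the threshold with all 12 samples, ranged as follows. DSS in WT gave -1.191 to 0.347 for Gm11735, -0.309 to 0.012 for St6galnac2, -0.216 to 0.266 for C1galt1 and -0.262 to 0.14 for C1galt1c1. DSS in KO gave -0.054 to 0.133 for St6galnac1, -0.261 to 0.013 for St6galnac2 and -0.201 to 0.205 for C1galt1. KO against WT gave -0.139 to 0.203 for C1galt1 and -0.041 to 0.36 for C1galt1c1 untreated, and -0.256 to 0.282 for C1galt1 under DSS. Interactions ran from -0.455 to 1.083 for Gm11735, -0.139 to 0.183 for St6galnac2, -0.308 to 0.23 for C1galt1, -0.165 to 0.006 for Gcnt3, -0.842 to 1.452 for B3gnt6 and -0.201 to 0.145 for Fut2.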
